A study of Rattus norvegicus with 12 samples.

Results

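The enzymes described here are the conjugating drug-metabolism enzymes: the glutathione S-transferases (Gst), the UDP-glucuronosyltransferases (Ugt) and the cytosolic sulfotransferases (Sult). They were chosen by name alone, as every probe set whose single annotated symbol begins with Gsta, Gstm, Gstp, Gstt, Gstk, Gstz, Gsto, Ugt1, Ugt2, Sult1 or Sult2. This gave 42 probe sets of 39 genes, out of 31042 probe sets tested and 14217 genes named on them. There were 21 Gst, 9 Ugt and 12 Sult probe sets, and 3 genes (Gstt2, Sult2b1 and Ugt2b) had a pair of probe sets each. No probe set of a Ugt1 gene entered: 4 further probe sets of these families carry several symbols and were left out, 2 of them of Ugt1 genes.

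Primary hepatocytes are liver parenchymal cells freshly taken from the animal and held in short-term culture, where they keep much of the liver's drug metabolism. Here they came from Wistar rats, were released with collagenase, purified on a Percoll gradient and left for a day before treatment. The 4 groups were cells given 250 U/ml rat interferon alpha for 6 h, untreated cells cultured for 6 h, cells given the same dose for 3 h, and untreated cells cultured for 3 h. Each group had 3 arrays, labelled as biological replicates with the numbers 1 to 3, and the labels do not say whether a number stands for 1 animal or 1 isolation.

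Conjugation is the step of detoxification in which a large polar group is attached to a foreign or endogenous molecule so that it can leave the cell. Gst enzymes attach glutathione to electrophiles, Ugt enzymes of the endoplasmic reticulum attach glucuronic acid from UDP-glucuronic acid, and Sult enzymes of the cytosol attach a sulfonate group from the donor PAPS. Many of these genes are controlled in liver by the nuclear receptors Nr1i2 and Nr1i3 and by the oxidative stress factor Nrf2. Interferons are known to lower several cytochrome P450 enzymes in liver, which raises the question of what they do to the conjugating step.

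The values are log2 intensities per probe set, and a difference of 1 is a doubling. Array medians ran from 5.16 to 5.21. The targeted response was present: 8 of 8 genes chosen as an interferon check, Cxcl10, Mx1, Ifit3, Isg15, Rsad2, Irf7, Cmpk2 and Usp18, were called at 6 h (limma, adjusted p under 0.05 over all probe sets). At 3 h the test called 1 of these 8 without the replicate number as a block and 3 with it, so a count of 0 at 3 h carries less weight. Arrays that shared a replicate number resembled each other, so every comparison was also fitted with this block. Hepatocyte markers were bright, with a list mean between 13.05 and 13.35 on every array, and Alb averaged 14.67. No list of markers for hepatocytes, Kupffer cells, endothelial cells, stellate cells, cholangiocytes, lymphocytes or erythroid cells had a member called with interferon alpha or between the control cultures of both times, with or without the block. The Kupffer, endothelial, stellate, cholangiocyte, erythroid and hepatocyte lists had members called between replicate numbers, and those values stand beside that comparison.

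Of the 42 probe sets, 36 had a mean above the median of all probe sets (5.20). The other 6 were Gsta3l1 (3.09), Sult1d1 (2.87), Sult1e1 (3.46), Sult2a1 (2.99), Ugt2b7 (3.90) and Gstm6l (4.64), and the first 4 of these lay below the lower quartile of all probe sets (3.89). Of these, Sult1e1 is known to sulfonate oestrogens and Sult2a1 hydroxysteroids. Signals of different probe sets are not amounts of transcript, so their order says nothing of which enzyme is more abundant.

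None of the conjugating enzymes passed the test with interferon alpha, in any class and at either time. With limma, 0 of 42 probe sets were called at 6 h, where 0.387% of all probe sets were called, and 0 of 42 were called at 3 h, where 0.00644% were. The replicate block did not alter this: 0 of 42 were called at either time, against 1.1% of all probe sets at 6 h and 0.0966% at 3 h, and the smallest adjusted p among the members was 0.464 at 6 h and 0.741 at 3 h. At an unadjusted p under 0.05, 2 members stood out at 6 h with the block (4.76%, against 8.18% of all probe sets) and 0 at 3 h (6.75% of all). The same 0 was returned by limma-trend, by robust eBayes and by the mean of the effects at both times (0.435% of all probe sets without the block), and 0 members were called for the difference between the effects at 6 h and at 3 h, as were 0 of all probe sets.

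The blocked fit also gave an interval for the effect on each probe set. Each interval holds for its own probe set, and together they are no joint bound over all 42. The 95% intervals of this fit lay between -0.47 and 0.35 log2 for all 42 probe sets at 6 h, and between -0.45 and 0.34 at 3 h. The widest bound at 6 h belonged to Gstm3, a mu-class transferase, whose interval reached a 1.39-fold difference. Without the block the intervals ran from -1.84 to 1.60 at 6 h and from -1.73 to 1.72 at 3 h, and 6 of the 42 reached past 1 log2 at each time. The median change was -0.03 log2 at 6 h (-0.02 over all probe sets) and 0.00 at 3 h (-0.01 over all probe sets). The median size of a change, regardless of sign, was 0.0464 log2 at 6 h against 0.0762 over all probe sets. These medians are not matched for signal, and most members lay above the median signal, so they do not show that the enzymes were steadier than other genes.

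The estimated changes of every class lay within narrow limits. At 6 h the log2 changes with interferon alpha ran from -0.07 to 0.19 over the 4 alpha-class, from -0.20 to 0.04 over the 7 mu-class, from -0.12 to -0.09 over the 2 pi-class and from -0.07 to 0.15 over the 4 theta-class probe sets. They ran from -0.10 to 0.13 over the 9 Ugt2, from -0.21 to 0.03 over the 7 Sult1 and from -0.05 to 0.11 over the 5 Sult2 probe sets. Over the 4 kappa-, zeta- and omega-class probe sets they ran from -0.04 to 0.11. At 3 h the ranges were -0.05 to 0.14 for Ugt2, -0.11 to 0.02 for Sult1 and -0.16 to 0.14 for Sult2. For the Gst classes they were -0.09 to 0.05 (alpha), -0.16 to 0.09 (mu), -0.01 to 0 (pi) and -0.17 to 0.01 (theta). For kappa, zeta and omega together the 3 h range was 0 to 0.08.

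**Figure D1:**
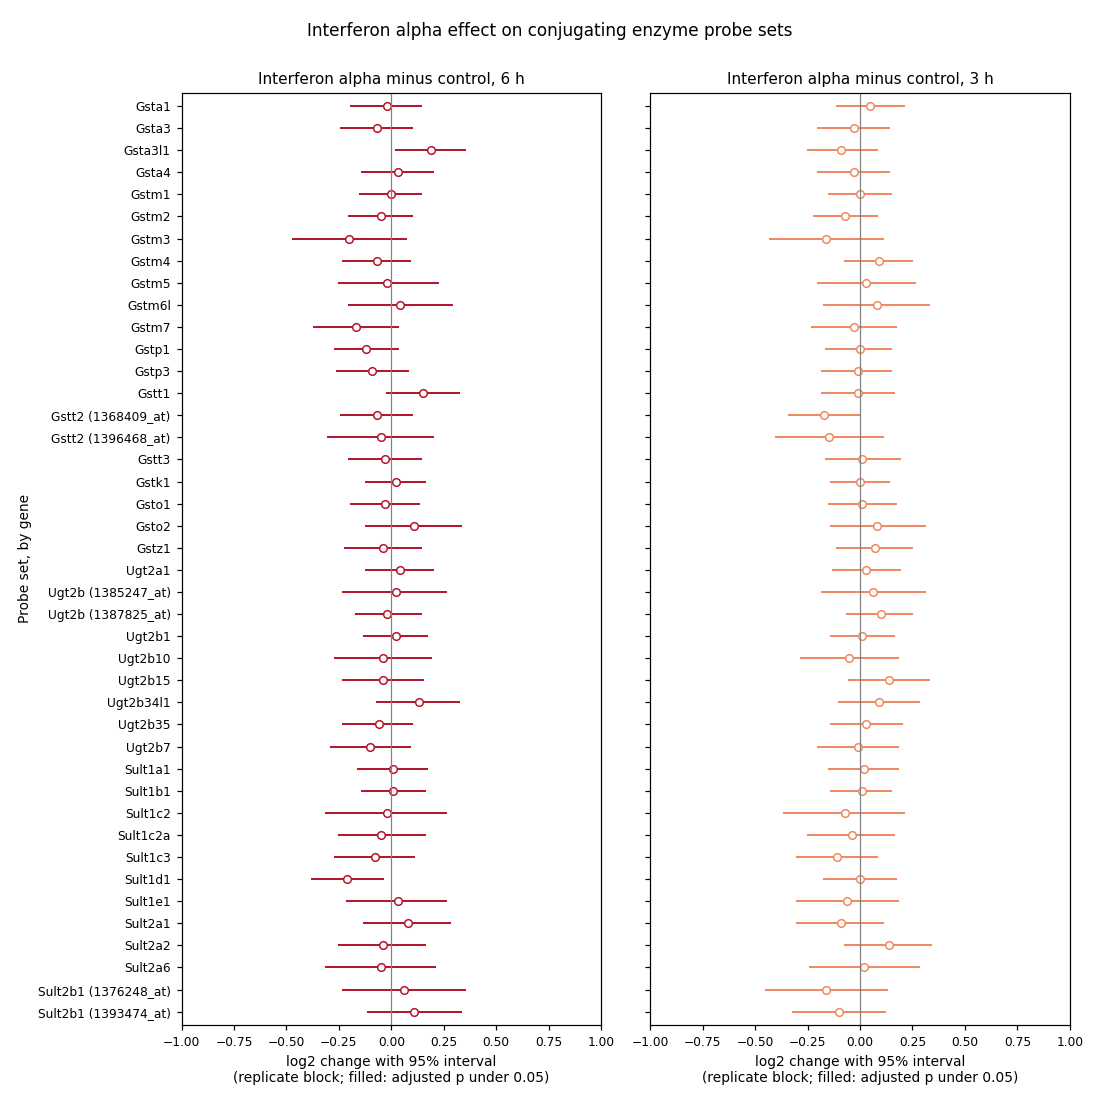
Change of each of the 42 probe sets with interferon alpha at 6 h (left) and at 3 h (right), as log2 of treated minus control with 95% intervals from limma with the replicate block. All points are open, because 0 of 42 passed an adjusted p under 0.05, and all intervals lie between -0.47 and 0.35.

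The brightest probe set of each subfamily shows how close the treated and untreated arrays were; array values are given in the order of replicate numbers 1, 2 and 3. Gsta1, an alpha-class transferase abundant in liver, read 13.25, 13.16 and 13.15 with interferon alpha at 6 h, against 13.12, 13.25 and 13.27 in control. At 3 h Gsta1 read 13.25, 13.25 and 13.26 with interferon alpha, against 13.24, 13.15 and 13.22 in control. All 3 treated arrays lay above the controls at 3 h, by as little as 0.01, and the groups overlapped at 6 h. Gstm1, a major mu-class transferase, read 13.94, 14.03 and 14.08 with interferon alpha at 6 h, against 13.88, 14.08 and 14.09 in control. Its 3 h arrays read 13.75, 13.95 and 14.03 with interferon alpha, against 13.74, 13.99 and 13.99 in control. Both pairs of Gstm1 groups overlapped.

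Among the remaining Gst classes, Gstk1, the kappa-class enzyme of mitochondria and peroxisomes, read 12.34, 12.26 and 12.49 with interferon alpha at 6 h, against 12.33, 12.26 and 12.45 in control. The 3 h values of Gstk1 were 12.38, 12.32 and 12.55 with interferon alpha, against 12.42, 12.28 and 12.53 in control. Replicate number 2 gave the lowest Gstk1 value in all 4 groups, and treated and control arrays of 1 number differed by at most 0.04. Gstp3, of the pi class, read 11.60, 10.54 and 11.39 with interferon alpha at 6 h, against 11.68, 10.67 and 11.45 in control. At 3 h the Gstp3 values were 11.83, 10.93 and 11.75 with interferon alpha, against 11.77, 10.97 and 11.81 in control. The difference between numbers was again far wider than that between treatments. Gstt3, of the theta class, read 12.65, 11.32 and 12.12 with interferon alpha at 6 h, against 12.58, 11.50 and 12.10 in control. Its 3 h values were 12.74, 11.50 and 12.38 with interferon alpha, against 12.68, 11.55 and 12.36 in control.

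Treated and control arrays of the glucuronosyltransferases and sulfotransferases also lay near each other. Ugt2b, on its brighter probe set 1387825_at, read 12.79, 12.64 and 12.75 with interferon alpha at 6 h, against 12.69, 12.79 and 12.76 in control. At 3 h the same probe set read 12.86, 12.78 and 12.85 with interferon alpha, against 12.77, 12.70 and 12.72 in control. The 3 h groups did not overlap and the 6 h groups did. Sult1b1, which sulfonates thyroid hormones, read 13.38, 13.52 and 13.13 with interferon alpha at 6 h, against 13.28, 13.52 and 13.20 in control. Its 3 h values were 13.30, 13.51 and 13.16 with interferon alpha, against 13.31, 13.49 and 13.16 in control. Sult2a2, a hydroxysteroid sulfotransferase, read 11.24, 11.15 and 11.01 with interferon alpha at 6 h, against 11.05, 11.34 and 11.13 in control, and these groups overlapped. The Sult2a2 arrays at 3 h read 11.48, 11.50 and 11.60 with interferon alpha, against 11.29, 11.42 and 11.46 in control, with the treated arrays above all controls.

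Separations of this kind also occurred elsewhere on the array. At 3 h the treated arrays lay wholly above the controls for 4 members (Gsta1, Sult2a2, Ugt2b and Ugt2b34l1) and wholly below for 0, together 9.52% of members, against 7.5% of all probe sets. At 6 h they lay above for Gsta3l1 and below for Sult1d1, 4.76% of members against 7.75% of all probe sets. Both of these were dim. Sult1d1, which sulfonates catecholamines in mouse, read 2.78, 2.66 and 2.81 with interferon alpha at 6 h, against 2.94, 2.95 and 3.00 in control (log2 change -0.21 ± 0.08, SE with block). Gsta3l1 read 3.22, 3.23 and 3.12 with interferon alpha at 6 h, against 3.07, 2.91 and 3.03 in control (0.19 ± 0.07).

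The largest differences among members above the median signal were small and did not pass. At 6 h these were Gstm3 (log2 change -0.20 ± 0.12, SE with block), the mu-class Gstm7 (-0.17 ± 0.09) and Gstt1 (0.15 ± 0.08), a theta-class enzyme that conjugates small halogenated molecules. The Gstm7 arrays read 7.99, 7.31 and 7.67 with interferon alpha at 6 h, against 8.15, 7.53 and 7.80 in control. These groups overlapped, but within each number the treated Gstm7 array was lower at 6 h (-0.16, -0.22 and -0.13). At 3 h the Gstm7 values were 8.16, 7.70 and 8.08 with interferon alpha, against 8.18, 7.61 and 8.24 in control. The 3 h comparison was led by the theta-class Gstt2 on probe set 1368409_at (-0.17 ± 0.08), Gstm3 (-0.16 ± 0.12) and Sult2b1, which sulfonates cholesterol, on probe set 1376248_at (-0.16 ± 0.13). Gstt2 read 8.41, 8.83 and 8.91 with interferon alpha at 3 h, against 8.67, 8.99 and 8.99 in control. At 6 h Gstt2 read 8.82, 8.97 and 9.05 with interferon alpha, against 8.87, 9.09 and 9.08 in control. Gstt2 on 1368409_at and Gstm3 had the treated array lower for every number at both times. The other Gstt2 probe set, 1396468_at, did not have the treated array lower for every number at either time. Sult2b1 on 1376248_at read 5.64, 6.58 and 5.97 with interferon alpha at 3 h, against 5.71, 6.89 and 6.08 in control. At 6 h the same probe set read 5.76, 6.22 and 5.65 with interferon alpha, against 5.68, 6.10 and 5.67 in control, so the sign of its difference was not the same at both times. All 3 numbers differed the same way in 33.3% of members at 6 h, against 32.3% of all probe sets. At 3 h this held for 35.7% of members and 34.8% of all probe sets.

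An interferon-stimulated response element (ISRE) is the DNA motif bound by the factor complex that type I interferons activate. The motif, TTTC, then 2 bases of any kind, then TTTC, was searched on both strands of the 250 bases before the start of each gene, in RefSeq sequences of rat assembly GRCr8. It was found in 3 of the 34 member genes with a sequence (8.82%; Ugt2b, Ugt2b10 and Ugt2b34l1) and in 3.41% of all 33465 promoters, against 4 of 6 genes of the interferon check (Cxcl10, Ifit3, Irf7 and Rsad2). A gene counted if any of its listed windows held the motif, whereas the share of all promoters is per window, so these shares are not strictly alike. Rsad2, Ugt2b10 and Ugt2b are shown because all have the motif, in capitals, while only Rsad2 was called with interferon alpha. The Rsad2 window lies at chr6:48788121-48788370 on the minus strand, that of Ugt2b10 at chr14:21462591-21462840 and that of Ugt2b at chr14:20985199-20985448, both on the plus strand.
Rsad2: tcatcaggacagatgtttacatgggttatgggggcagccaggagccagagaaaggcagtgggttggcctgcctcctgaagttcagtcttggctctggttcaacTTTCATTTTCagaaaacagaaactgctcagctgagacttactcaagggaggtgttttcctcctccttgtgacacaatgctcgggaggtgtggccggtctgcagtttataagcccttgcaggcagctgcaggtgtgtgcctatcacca
Ugt2b10: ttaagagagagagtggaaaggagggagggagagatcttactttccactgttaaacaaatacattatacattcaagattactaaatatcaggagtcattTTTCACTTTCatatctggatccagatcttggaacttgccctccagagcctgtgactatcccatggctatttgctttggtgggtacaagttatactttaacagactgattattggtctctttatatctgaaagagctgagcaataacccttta
Ugt2b: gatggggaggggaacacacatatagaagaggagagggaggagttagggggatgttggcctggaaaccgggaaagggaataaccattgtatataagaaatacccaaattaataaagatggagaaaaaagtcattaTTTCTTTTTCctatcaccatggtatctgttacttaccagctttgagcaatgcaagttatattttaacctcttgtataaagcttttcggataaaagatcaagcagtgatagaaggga
The motif begins at base -147 of Rsad2, base -152 of Ugt2b10 and base -116 of Ugt2b, counted back from the start of the gene. Rsad2, an antiviral enzyme, changed by 3.14 ± 0.34 log2 at 6 h (limma without block, adjusted p = 0.00312). Ugt2b10 had a log2 change of -0.04 ± 0.11 (SE with block) and Ugt2b on 1387825_at stood at means of 12.73 ± 0.07 with interferon alpha and 12.75 ± 0.05 in control (SD, n = 3 each). Ugt2b34l1, whose motif begins at base -73 or -92 of its 2 listed starts, had means of 8.66 ± 0.18 with interferon alpha and 8.53 ± 0.15 in control at 6 h. A match of letters is a description and not a binding site.

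Between 3 h and 6 h of culture without interferon, 4 sulfotransferases, Ugt2b10, Gstt1 and Gstz1 fell and Gstm3 and Gstp1 rose, in a fit with the replicate block. This comparison sets control at 6 h against control at 3 h and asks how the enzymes moved in untreated culture over the same interval. Without the block 0 of 42 members were called (0.19% of all probe sets; 4 members at an unadjusted p under 0.05; smallest adjusted p 0.114, for Sult2a6). With the replicate block 9 members were called, 21.4% of them, against 8.15% of all probe sets: 2 were higher at 6 h (background 3.33%) and 7 lower (background 4.82%). The changes lay between 0.35 and 0.57 log2 in size, at most 1.48-fold. The median change of the members was -0.10 log2, against 0.01 over all probe sets, and in 26 of 42 (61.9%) all 3 numbers moved the same way, 20 of them downward, against 40.9% of all probe sets. However, 36 of the 42 members lay above the median signal. No share among probe sets of like signal is given, so the part of brightness in these excesses is unknown. The 6 h and 3 h control arrays did not overlap in 6 members, 14.3%, against 14.1% of all probe sets, so separation by time was as frequent as elsewhere on the array.

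Both enzymes that rose were glutathione S-transferases. Gstp1, the pi-class enzyme known in rat liver as a marker of preneoplastic foci, read 10.75, 9.10 and 11.22 in control at 6 h, against 10.35, 8.76 and 10.86 in control at 3 h. Every number was higher at 6 h, by a similar step, while the groups overlapped because replicate number 2 was far below the others. The log2 change was 0.37 ± 0.07 (SE with block, adjusted p = 0.0107), and without the block the standard error was 0.78 (adjusted p = 0.948). With interferon alpha Gstp1 read 10.64, 8.91 and 11.16 at 6 h, against 10.35, 8.79 and 10.82 at 3 h. Gstm3 read 10.80, 10.82 and 11.61 in control at 6 h, against 9.92, 10.51 and 11.33 in control at 3 h, with the widest step in number 1. Its log2 change was 0.49 ± 0.12 (adjusted p = 0.0335 with block). With interferon alpha Gstm3 read 10.53, 10.51 and 11.58 at 6 h, against 9.85, 10.26 and 11.16 at 3 h.

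Of the 7 that fell, 4 were sulfotransferases. Sult1c3, of the Sult1 subfamily, read 10.32, 9.36 and 8.97 in control at 6 h, against 10.72, 9.93 and 9.64 in control at 3 h. All 3 numbers were lower at 6 h, and the log2 change was -0.55 ± 0.09 (adjusted p = 0.00459 with block). The treated arrays of Sult1c3 read 10.28, 9.17 and 8.96 at 6 h, against 10.59, 9.78 and 9.59 at 3 h. Sult1c2a, of the same subfamily, read 9.60, 9.93 and 8.58 in control at 6 h, against 9.88, 10.23 and 9.07 in control at 3 h (log2 change -0.36 ± 0.09, adjusted p = 0.0413 with block). Its treated arrays read 9.53, 10.02 and 8.42 at 6 h, against 9.72, 10.32 and 9.01 at 3 h. Groups of both Sult1c genes overlapped, since numbers lay further apart than times.

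Sult2a6, a hydroxysteroid sulfotransferase of the subfamily that also handles bile acids, was the member with the widest change. It read 10.60, 10.86 and 10.72 in control at 6 h, against 11.18, 11.25 and 11.46 in control at 3 h, and these groups did not overlap. The log2 change was -0.57 ± 0.12 (adjusted p = 0.0156 with block, 0.114 without). With interferon alpha Sult2a6 read 10.83, 10.67 and 10.54 at 6 h, against 11.20, 11.21 and 11.54 at 3 h, again apart. Sult2b1 on probe set 1393474_at read 5.56, 6.20 and 5.55 in control at 6 h, against 6.18, 6.81 and 5.94 in control at 3 h (log2 change -0.54 ± 0.10, adjusted p = 0.00863 with block). The treated arrays of this probe set read 5.84, 6.08 and 5.72 at 6 h, against 6.17, 6.51 and 5.95 at 3 h. The gene's other probe set, 1376248_at, had a log2 change of -0.41 ± 0.13 in control, which did not pass (adjusted p = 0.0871 with block).

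The other 3 that fell were Gstt1, Gstz1 and Ugt2b10. Gstz1, which as maleylacetoacetate isomerase takes part in tyrosine breakdown, read 10.75, 10.68 and 10.41 in control at 6 h, against 11.13, 10.86 and 10.88 in control at 3 h, with no overlap (log2 change -0.35 ± 0.08, adjusted p = 0.0263 with block). Its treated arrays read 10.83, 10.57 and 10.31 at 6 h, against 11.24, 10.93 and 10.91 at 3 h. Gstz1 was thus apart by time in treated cells too. Ugt2b10, a glucuronosyltransferase, read 9.01, 9.30 and 8.92 in control at 6 h, against 9.51, 9.41 and 9.52 in control at 3 h, also with no overlap (-0.40 ± 0.11, adjusted p = 0.0393 with block). With interferon alpha Ugt2b10 read 9.12, 9.13 and 8.86 at 6 h, against 9.28, 9.54 and 9.46 at 3 h. Gstt1 read 9.19, 8.64 and 9.00 in control at 6 h, against 9.47, 8.89 and 9.55 in control at 3 h (-0.36 ± 0.08, adjusted p = 0.0194 with block). The Gstt1 arrays with interferon alpha read 9.33, 8.75 and 9.21 at 6 h, against 9.45, 8.92 and 9.50 at 3 h.

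**Figure D2:**
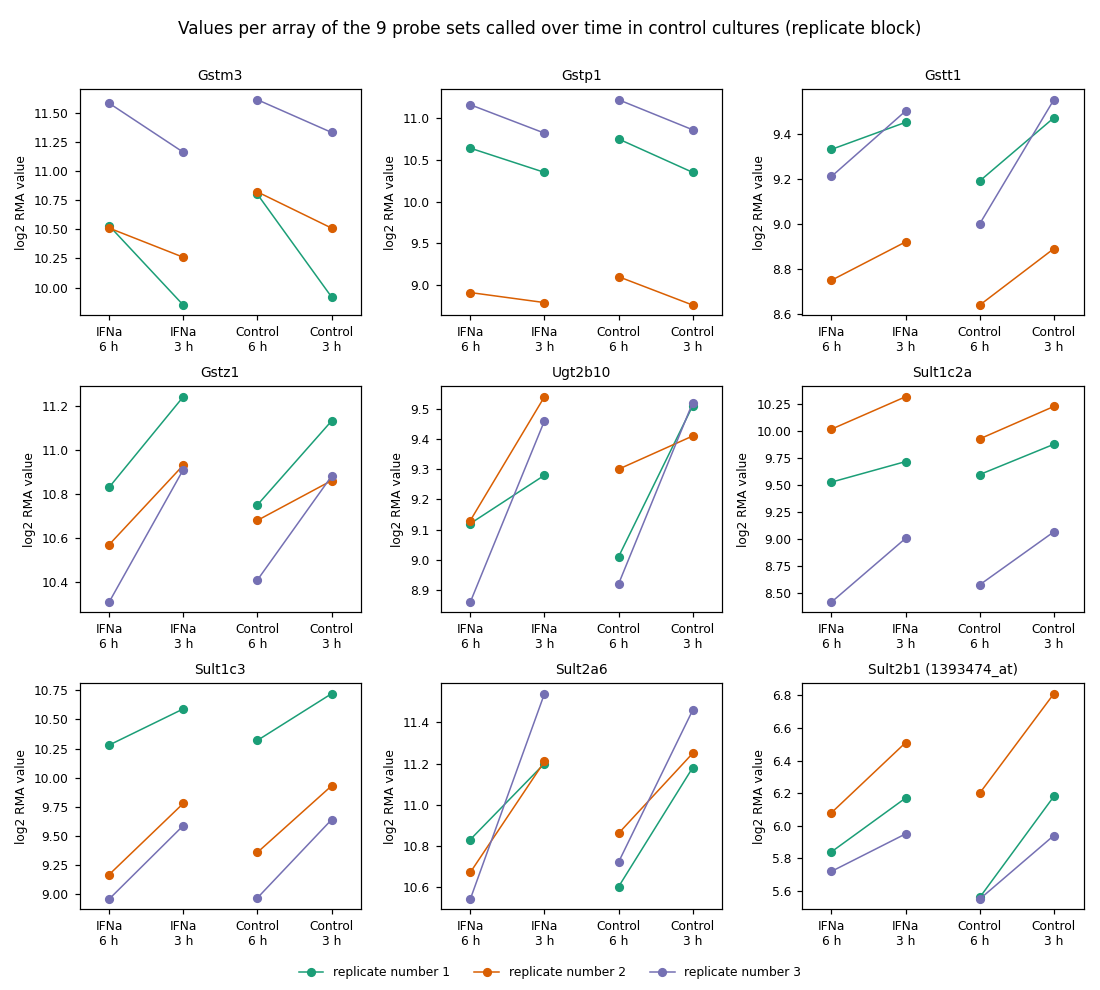
Array values (log2 RMA) of the 9 probe sets called between control at 6 h and control at 3 h with the replicate block; colours mark replicate numbers and lines join the 6 h and 3 h arrays of 1 number within a treatment. Gstm3 and Gstp1 were higher at 6 h and the other 7 lower, in each number. The numbers lie further apart than the control times in Gstp1, Sult1c2a, Sult1c3, Gstm3, Gstt1 and Sult2b1. They lie about as far apart in Gstz1 and less far in Sult2a6 and Ugt2b10.

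The treated cultures, which share no array with the controls, mostly moved in the same directions over the same interval. This comparison was added after the data were seen. The blocked calls below come from the same fit as the control calls, with a common residual variance and common block terms. The treated calls are therefore not independent of the control calls. Fitted on the arrays of each treatment alone, only Sult1c3 and Sult2a6 were called in both. All 9 members called in control culture had the same sign with interferon alpha. With the block 10 members were called in treated cells (23.8%, against 9.68% of all probe sets), and 0 without it (0.387% of all). These shares, too, are not matched for signal. Of the 10, 7 were also called in control: Gstm3 and Gstp1, higher at 6 h, and Gstz1, Sult1c2a, Sult1c3, Sult2a6 and Ugt2b10, lower. The 3 called with interferon alpha alone were Gstm7 (log2 change -0.32 ± 0.09), Gstp3 and Sult2a2, which had the same sign in control, and no difference of the changes was called. Over all members, 25 were lower at 6 h in both treatments, 9 higher in both, and 8 differed in sign. The same sign was thus seen in 81% of members and in 67.6% of all probe sets. Among all probe sets called in control, 97.7% had the same sign with interferon alpha and 66.8% were called there too, so this agreement is not particular to the conjugating enzymes. Treated and control arrays of 1 number may still share a cell preparation.

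**Figure D3:**
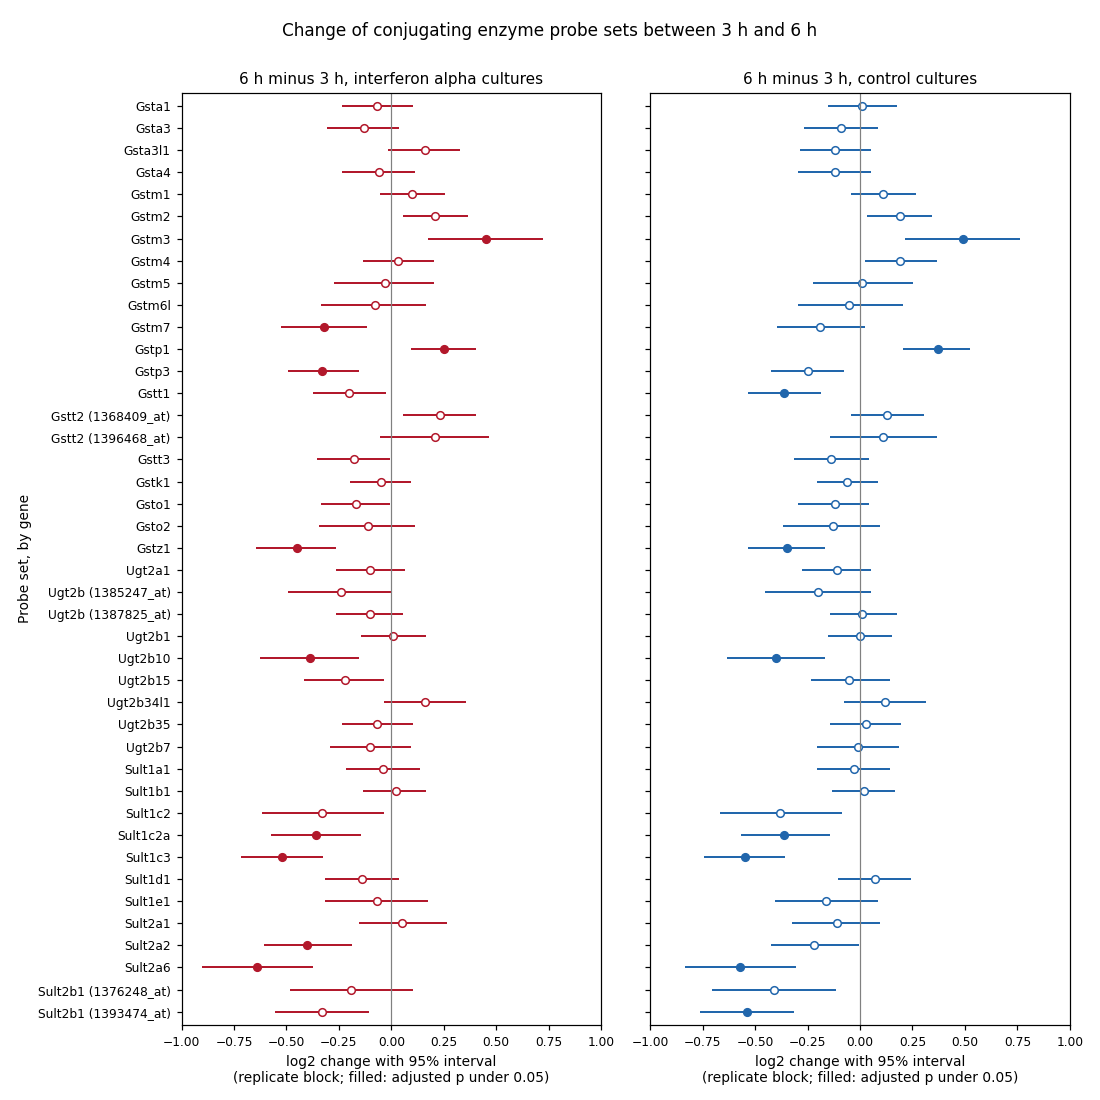
Change of each of the 42 probe sets between 3 h and 6 h with interferon alpha (left) and in control (right), as log2 of 6 h minus 3 h with 95% intervals from limma with the replicate block. Filled points, 10 on the left and 9 on the right, had an adjusted p under 0.05.

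These time calls rested on few arrays. Arrays of the same number resembled each other more within a time than across times, and the block across all 12 arrays does not take this into account. Fitted with the block on the 6 control arrays alone, 3 members were called (3.57% of all probe sets), Sult1c3, Sult2a6 and Sult2b1. On the 6 treated arrays alone 4 were called (6.17% of all), Sult1c3, Sult2a6, Gstz1 and Gstm3. In control, 3 calls were left without replicate 3 of the 3 h controls, 1 without replicate 1 and 4 without replicate 3 of the 6 h controls, and 0 to 2 when a replicate number was left out of all groups. No share of all probe sets is given for these leave-out fits. Sult1c3 was called in 12 of the 12 fits that left out a single array and Sult1c2a in 4.

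Other genes of the pathway are given here for control culture, against the 8.15% of all probe sets called with the block. Among 11 measured genes that supply the donor molecules, 1 was called with the block and lower at 6 h, Papss2, which makes the sulfate donor PAPS (-0.31 ± 0.08, adjusted p = 0.0357). Of 13 Nrf2 targets outside the families 2 were higher, the canalicular conjugate exporter Abcc2 (0.65 ± 0.08, adjusted p = 0.00155) and the sinusoidal exporter Abcc3 (0.39 ± 0.08, adjusted p = 0.0121). Of 15 other conjugating enzymes 1 was lower, the nicotinamide methyltransferase Nnmt (-0.35 ± 0.09, adjusted p = 0.032). Of 13 regulators 0 were called with the block, among them Nr1i2, the pregnane X receptor, at -0.36 ± 0.10 (adjusted p = 0.0624). With interferon alpha 0 genes of these 4 lists were called at either time, with or without the block.

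Many members differed between replicate numbers, some by more than any change with treatment or time. This did not hold for all: Sult2a6 (a range of 0.11 log2 between numbers), Sult2a2 (0.09) and Ugt2b10 (0.16) differed less between numbers than between times. A limma F-test over the 3 numbers, with group as a term and 4 arrays per number, called 26 of 42 members (61.9%), against 29.9% of all probe sets. It treats the 4 arrays of a number as independent, although they may share a cell preparation. Bright probe sets are called more often: among those above the median signal it was 26 of 36 members (72.2%) against 50.5% of all such probe sets. The highest and lowest number differed by over 1 log2 in 7 members (16.7%), against 3.2% of all probe sets. In 14 members (33.3%) the same number was highest and the same number lowest in all 4 groups, against 11.1% of all probe sets.

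Gst and Sult1 genes accounted for most of this, and Ugt2 genes for little. Gstp1 averaged 10.52 ± 0.21 in number 1, 8.89 ± 0.15 in number 2 and 11.01 ± 0.20 in number 3 (SD over 4 arrays), a 4.35-fold range (adjusted p = 4.66e-09). Number 2 was lowest in every group, and so it was for Gstt3, which averaged 12.66 ± 0.07, 11.46 ± 0.10 and 12.24 ± 0.15 in numbers 1, 2 and 3 (2.29-fold, adjusted p = 8.11e-07). Gstm5, of the mu class, had a different order, at 7.92 ± 0.15, 7.91 ± 0.14 and 9.41 ± 0.03, with number 3 alone high (2.83-fold, adjusted p = 5.36e-07). Its arrays read 8.03, 7.79 and 9.39 with interferon alpha at 6 h, against 8.05, 7.80 and 9.41 in control at 6 h. At 3 h Gstm5 read 7.87, 8.04 and 9.40 with interferon alpha, against 7.74, 8.02 and 9.45 in control, so number 3 stood above the others by over 1 log2 in all 4 groups. Sult1c2a ran the other way, at 9.68 ± 0.15, 10.12 ± 0.18 and 8.77 ± 0.32, with number 2 highest and number 3 lowest (2.55-fold, adjusted p = 1.27e-06).

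The remaining members over 1 log2 were Sult1c2 (a range of 1.25), Sult1c3 (1.19) and Gstm3 (1.14). Sult1c2 had the order of Sult1c2a, at 7.43, 7.76 and 6.51 in numbers 1, 2 and 3, whereas Sult1c3 was highest in number 1, at 10.48, 9.56 and 9.29. Gstm3 averaged 10.28, 10.53 and 11.42 and Gstm2 12.17, 11.98 and 12.70, both highest in number 3 as Gstm5 was. By subfamily, the F-test called 6 of 7 mu, 2 of 2 pi, 3 of 4 theta, 4 of 4 kappa, zeta and omega, 2 of 4 alpha, 5 of 7 Sult1, 2 of 5 Sult2 and 2 of 9 Ugt2 probe sets. Ranges in Ugt2 were 0.05 to 0.28 log2. Gsta1 differed by 0.02 and Ugt2b on 1387825_at by 0.05, so 2 of the bright probe sets were nearly level between numbers, while Gsta3, in the same class as Gsta1, averaged 10.84, 11.20 and 10.24. No single number was high throughout: among the 26 called, number 1 was highest in 7, number 2 in 11 and number 3 in 8.

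**Figure D4:**
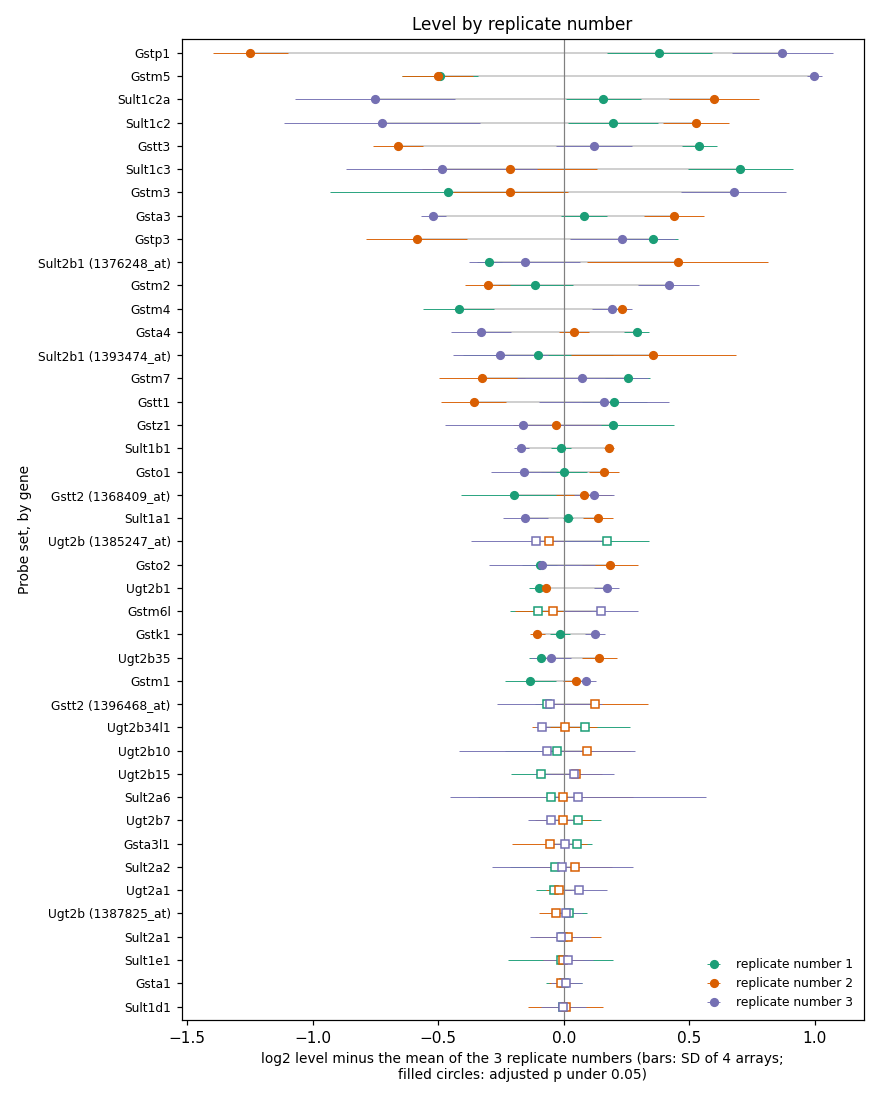
Mean of each of the 42 probe sets by replicate number, as the log2 difference from the mean of the 3 numbers, ordered by range; bars are the SD over 4 arrays, and filled circles mark the 26 probe sets with an adjusted p under 0.05. Gstp1 has the widest range, 2.12 log2, and 7 probe sets exceed 1 log2.

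Markers of other liver cells and of the Nrf2 response also moved with the replicate number. Of the Kupffer cell and macrophage list 5 of 5 measured markers were called between numbers, and the list mean ran from 7.07 to 7.26 in number 1, from 6.18 to 6.30 in number 2 and from 6.54 to 6.74 in number 3. Cd68, a macrophage marker, averaged 7.40, 5.98 and 7.47 in numbers 1, 2 and 3, with number 2 lowest as for Gstp1. The other 4 had number 1 alone high and number 3 near number 2, unlike Gstp1: Cd163 averaged 4.26, 3.42 and 3.49 and Clec4f 6.56, 5.17 and 5.53. Of the endothelial list 2 of 4 were called, with 0 of 4 above the median signal and list means of 4.30 to 4.66, 3.87 to 3.98 and 3.76 to 4.03. The cholangiocyte list had 1 of 4 called, the stellate list 1 of 6, the erythroid list 1 of 2, the lymphocyte list 0 of 4 and the hepatocyte list 3 of 8. Of 13 Nrf2 targets outside the families 9 were called. So were 10 of 13 regulators, 7 of 11 genes that supply donor molecules and 9 of 15 other conjugating enzymes. For scale, 29.9% of all probe sets were called, and 50.5% of those above the median signal. All 13 Nrf2 targets and all 8 hepatocyte markers lay above that median. Among the called Nrf2 targets Gclc, the rate-limiting enzyme of glutathione synthesis, averaged 10.81, 10.48 and 12.07. The cystine carrier Slc7a11 averaged 5.73, 5.18 and 7.59, and both were highest in number 3, as Gstm5 was. The part of these markers in the differences of the conjugating enzymes was not tested, and a change in the share of cells of a type cannot be told apart from a change in RNA per cell.

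Nrf2 acts through the antioxidant response element (ARE), and the core TGACNNNGC was searched in the same promoter windows on both strands. It was found in 5 of 34 member genes (14.7%; Gsta3, Gstm5, Gstm7, Gstp1 and Gstz1), against 10.1% of all promoters. The core of the xenobiotic response element (XRE), GCGTG, was found in 8 of 34 (23.5%), against 25.9% of all promoters. Genes and windows were counted as for the ISRE. Gstp1 and Gstm5 are shown because they had the widest ranges between numbers; both motifs are in capitals, the XRE core in its reverse form CACGC where it lies on the other strand, and within 1 stretch where motifs touch or overlap. The Gstp1 window lies at chr1:210769706-210769955 on the minus strand and the Gstm5 window at chr2:198219519-198219768 on the plus strand.
Gstp1: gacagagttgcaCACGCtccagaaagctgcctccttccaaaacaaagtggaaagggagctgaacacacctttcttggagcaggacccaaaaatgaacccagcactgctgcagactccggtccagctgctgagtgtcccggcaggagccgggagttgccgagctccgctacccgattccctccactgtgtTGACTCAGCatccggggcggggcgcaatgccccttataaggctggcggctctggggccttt
Gstm5: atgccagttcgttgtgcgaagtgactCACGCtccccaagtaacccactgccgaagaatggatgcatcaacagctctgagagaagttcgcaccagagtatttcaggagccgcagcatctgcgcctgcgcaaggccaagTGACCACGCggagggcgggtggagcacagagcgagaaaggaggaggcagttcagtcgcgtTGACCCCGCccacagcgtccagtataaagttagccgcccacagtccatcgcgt
The ARE core begins at base -61 of Gstp1 and at bases -113 and -53 of Gstm5. Of the 7 members that differed by over 1 log2 between numbers, Gstp1 and Gstm5 had the ARE core in this window, while Gstt3, Gstm3, Sult1c2, Sult1c2a and Sult1c3 did not.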

How the data were processed

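Each of the 12 arrays has a deposited log2 value per probe set. The authors ran RMA with R 2.10.0 and its affy package, going by the submitters' processing notes. RMA forces a common distribution on all arrays, and a change common to most transcripts is lost in it. No source used here names the probe set definition. The 57 control probe sets were left out. Symbols came from the platform annotation, and 41 of 42 members matched RefSeq genes of GRCr8 by Entrez identifier, with 0 symbols changed. Groups and replicate numbers came from the titles.

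Tests were run in R 4.3.3 with limma 3.58.1 (lmFit, eBayes; two-sided) in 1 fit over 4 groups with 8 residual degrees of freedom, or 6 with the replicate block. Adjustment was by Benjamini-Hochberg over 31042 probe sets within a comparison, and a call is an adjusted p under 0.05. The fit was tested on simulated data that lacked the extra likeness of arrays of 1 number within a time. That test therefore does not bear on how this likeness affects the blocked time calls. Without the block the p-values measure the spread between the cultures of a group. With the block, and in the F-test between numbers, they measure only the spread left once group and replicate number are removed. The F-test p-values thus do not measure the spread between animals or cell preparations. The number of arrays limits the precision. The pairing was checked from the data: deviations of arrays from their group means correlated at 0.651 to 0.829 for 1 number at 1 time and at 0.479 to 0.736 for 1 number across times, and below 0 between numbers. Deviations within a group sum to 0, so the values below 0 between numbers add little of their own. On the positive values for 1 number, the numbers were taken to pair the arrays.

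Array values are given for members called in a comparison, the 3 with the largest change per comparison above the median signal, the brightest per subfamily and the 4 with the smallest adjusted p between numbers. Values of other members were named after they were seen. Members and lists were chosen with earlier results of these data known. Alternatives were the block, the block within each time, limma-trend, robust eBayes, median centring, a filter on dim probe sets, fewer groups and each array left out. Promoters (250 bases) came from RefSeq, GRCr8, for 34 of 39 genes.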

Additional observations from a re-analysis of the deposited data

How the results depend on the processing

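For interferon alpha, 0 members were called at 6 h, at 3 h, for their mean and for their difference under all alternatives run, limma-trend, robust eBayes, both forms of the block, median centring, the dim filter and each array left out included. Between 6 h and 3 h in control, 0 members were called without the replicate block, 9 with it and 11 with a block within each time; with interferon alpha these counts were 0, 10 and 11. A block within each time treats the differences of a number between times as fixed. With the block, the control count was 3 on control arrays alone, and leaving out an array or a replicate number gave 0 to 9. The treated count was 4 on interferon alpha arrays alone, with a range of 0 to 9 when an array or number was left out; the settings with few calls also have fewer arrays. The count between replicate numbers, 26 of 42, was 17 on the 3 h arrays, 15 on interferon alpha arrays and 16 on control arrays alone. No share of all probe sets is given for these 3 counts or for the fits that left out an array or number. With the block, the 9 time changes called in control kept their sign under all alternatives. Without the block, where neither was called, the control change of Gstp1 differed in sign in 2 alternatives and that of Sult1c2a in 1. With 3 arrays per group, an interferon effect below about the width of the blocked intervals would not have been seen, and for the 6 members at or below the median signal the share of background is unknown. Fits on one treatment alone, on treated 6 h against 3 h and with a number left out were chosen after seeing the data.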
